A study of Oryctolagus cuniculus with 6 samples.

Results

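The cornified envelope genes examined here were IVL, TGM1, TGM3, EVPL, PPL, CNFN, SCEL, CSTA, FLG and KLK7. This list of 10 genes was set by name from known roles in squamous differentiation, with earlier results of these data known. Rows for 9 of them were found among the 22190 genes of the count table, and KLK7 was not analysed here. The RNA sequenced came from primary limbal stem cells (LSCs), the stem cells of the corneal epithelium, which grew out of rabbit limbal explants in keratinocyte medium. The fresh group had 3 libraries from explants of untreated corneas. The preconditioned group had 3 libraries from corneas kept for 7 days in liquid nitrogen in a freezing medium to which the inflammatory cytokine IL-1β was added at 10 ng/mL. Freezing, DMSO and serum in the freezing medium and IL-1β came together, so their effects cannot be told apart. The strain, the age and the animal behind each library are not given in the sources used here, and p values measure only the spread between these libraries.

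The cornified envelope is the protein shell that forms beneath the plasma membrane of a terminally differentiating squamous cell. Plakin proteins and involucrin are laid down first, transglutaminases crosslink them to further precursors, and proteases later loosen the joints between dead cells so that they can be shed. The cornea is a stratified epithelium that does not normally keratinize. Its outer cells still express several envelope precursors, whereas filaggrin and loricrin are marks of the epidermis and of keratinized ocular surface disease.

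Libraries held 31952352 to 34327534 counts on genes, and values are given as CPM, a gene's counts scaled to the size of its library after edgeR's TMM correction for composition. Preconditioned replicate 1 stood apart from its group, with a score of 2.27 on the first principal component (55.7% of variance) against 44.2 and 53.1 for replicates 2 and 3 and −39.3 to −29.5 for the fresh group. KRT5, the basal keratin of stratified epithelia, had 7337 to 11740 CPM over the 6 libraries, and TP63, the transcription factor of epithelial stem and basal cells, 112 to 246 CPM. KRT14 and KRT12 were not analysed here. Of the other lineages the explant could hold, 10 stromal markers summed to 529 to 1144 CPM in the fresh and 1299 to 2323 CPM in the preconditioned libraries. Of these 10, COL1A1 alone passed both cutoffs (log2 fold change 2.66, edgeR adjusted p = 0.015), with an adjusted p of 0.069 without fresh replicate 2 and 0.067 without preconditioned replicate 2 at log2 fold changes of 2.80 and 2.51. The immune list of 7 genes summed to 667 to 754 and 730 to 1184 CPM, most of it LCP1 and CD68, with the leukocyte marker PTPRC at 0.197 to 1.503 CPM. The endothelial list of 5 genes summed to 2.87 to 3.25 and 1.28 to 13.2 CPM, and the melanocyte list of 5 genes to 0.348 to 0.410 and 0.517 to 2.70 CPM, with PMEL, MLANA and TYR at no more than 3 counts in any library. The conjunctival list, 6 genes with most of the sum from KRT19, KRT7 and MUC4, summed to 3040 to 7022 and 2185 to 5306 CPM. In such bulk samples, fewer cells of a type and less RNA per cell cannot be told apart, and the part of these lineages in the results below was not tested.

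The question was whether LSCs from preconditioned tissue differ from fresh LSCs in this late differentiation program. Of the 9 genes, 7 passed edgeR's filter on low counts and were tested. Fold changes are given in log2, preconditioned over fresh (log2FC). TGM1 had the largest positive and IVL the largest negative log2FC, and over the 7 genes 4 values were positive and 3 negative, from −1.18 to 1.05. None of the 7 was called by edgeR's quasi-likelihood test, where a called gene has log2FC at or beyond 1 in either direction and p, after Benjamini-Hochberg adjustment, no higher than 0.05. Over all 15029 tested genes, 2.29% were called. The median log2FC was 0.45 over the 7 genes and 0.01 over all tested genes. Before adjustment 1 of the 7 genes, TGM1, had p at or under 0.05, against 30.6% of all tested genes. The DESeq2 Wald test called 1 gene, again TGM1, against 7.78% of the genes it adjusted, and limma called none on log2(FPKM + 1) or log2(FPKM + 0.1), against 1.88% and 3.93% of all tested genes. Without the filter on low counts, edgeR also called TGM1 alone of the 9 genes, against 1.85% of all genes.

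**Figure D1:**
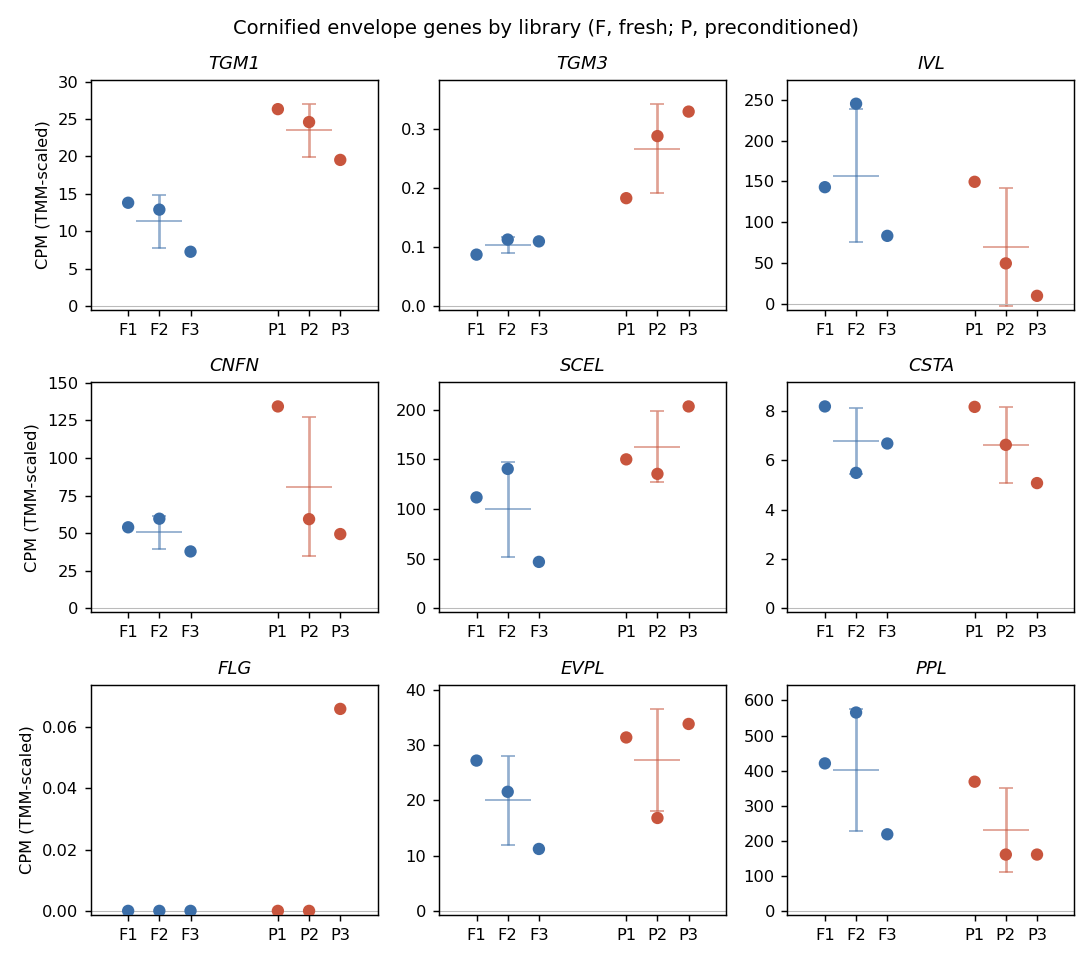
TMM-scaled CPM of the 9 cornified envelope genes in the 3 fresh (F, blue) and 3 preconditioned (P, red) libraries, with points for libraries and, except for FLG, a horizontal mark and bars for the mean ± SD of each group. The preconditioned libraries lie above all fresh libraries for TGM1 and TGM3, and IVL runs from 9.52 to 149 CPM within the preconditioned group.

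TGM1 encodes transglutaminase 1, the membrane-bound enzyme that ties precursors together at the cell border. It had 13.8, 12.9 and 7.25 CPM in fresh replicates 1 to 3 and 26.3, 24.6 and 19.5 CPM in preconditioned replicates 1 to 3. Every preconditioned library was above every fresh library, as was so for 17.9% of all tested genes, with a further 18.8% below. The means were 11.3 ± 3.55 and 23.5 ± 3.53 CPM (SD, n = 3 each), a difference larger than the SD of either group. The log2FC was 1.05 (SE 0.27, edgeR adjusted p = 0.059), a 2.08-fold difference with a 95% interval of 1.35 to 3.20. With DESeq2 the adjusted p was 0.0046, and with no filter on low counts in edgeR it was 0.047, so the call depended on the tool and the filter. Over edgeR fits that each lacked 1 library, it was between 0.058 and 0.18.

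TGM3 encodes the epidermal transglutaminase, which acts in the cytoplasm on soluble precursors. Its row held 3, 4 and 4 counts in the fresh libraries and 6, 9 and 10 in the preconditioned libraries. The groups did not overlap, but at these counts TGM3 fell under edgeR's filter. In the fit without the filter its log2FC was 1.33 (edgeR adjusted p = 0.30). Of the other transglutaminases, TGM2, TGM5 and TGM6 were tested, all at under 5 CPM in each library, with log2FC values of −0.72, −0.66 and 0.15 (adjusted p = 0.42, 0.25 and 0.92). Without fresh replicate 3 that of TGM2 was −0.04.

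IVL is the row for involucrin. Involucrin is an early envelope precursor that serves as a scaffold for others and is a usual marker of suprabasal keratinocytes. Fresh replicates 1 to 3 had 143, 245 and 83.1 CPM, and preconditioned replicates 1 to 3 had 149, 49.3 and 9.52 CPM. Preconditioned replicate 1 thus lay within the fresh range, while the other preconditioned libraries lay below all fresh libraries. Within the preconditioned group the highest value was 15.7 times the lowest, a ratio that 1.89% of tested genes exceeded, and the median ratio of all tested genes was 1.46. Within the fresh group the same ratio was 2.95 for IVL and 1.30 for the median gene. Mean levels were 157 ± 82.0 (fresh) and 69.4 ± 72.1 CPM (preconditioned, SD, n = 3 each), so that the difference of the means was close to the spread. The log2FC of −1.18 (SE 0.88, edgeR adjusted p = 0.40) had a 95% interval of −3.28 to 0.93. It was −2.43 without preconditioned replicate 1 (adjusted p = 0.11 in edgeR) and −0.66 without preconditioned replicate 3 (adjusted p = 0.53 in edgeR).

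CNFN and SCEL had positive fold changes. Cornifelin, from CNFN, is a small precursor that is incorporated into the envelope, and sciellin, from SCEL, is a precursor of stratified epithelia that is crosslinked by transglutaminases. CNFN had 53.9, 59.6 and 37.9 CPM in the fresh libraries and 134, 59.4 and 49.4 CPM in the preconditioned libraries. Only preconditioned replicate 1 was above the fresh range. The log2FC of CNFN was 0.68 (SE 0.39, edgeR adjusted p = 0.28), and it was 0.10 without preconditioned replicate 1. SCEL had 112, 141 and 46.9 CPM in the fresh and 150, 136 and 203 CPM in the preconditioned libraries. The groups met at the edge, since fresh replicate 2 lay just above preconditioned replicate 2. Its log2FC was 0.71 (SE 0.38, edgeR adjusted p = 0.25) with an interval of −0.20 to 1.62. SCEL was highest in the library where IVL was lowest, and CNFN was highest in the preconditioned library where IVL was highest.

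Cystatin A, from CSTA, is a cysteine protease inhibitor that is also built into the envelope. It had 8.17, 5.49 and 6.67 CPM in the fresh and 8.16, 6.62 and 5.07 CPM in the preconditioned libraries, and the group ranges overlapped almost fully. Its log2FC was −0.03 (SE 0.27, edgeR adjusted p = 0.94), and the 95% interval of the fold, 0.634 to 1.504, leaves out a change to 2-fold in either direction. FLG, the row for filaggrin, which bundles keratins in the epidermis, had 0 counts in 5 libraries and 2 counts in preconditioned replicate 3. A count of 0 allows up to 3 counts, which is 0.0820 to 0.0959 CPM in those 5 libraries, and the 2 counts in preconditioned replicate 3 were 0.0659 CPM, so a difference between the groups was not detectable at this depth.

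Envoplakin (EVPL) and periplakin (PPL) are partner plakins that link the envelope to desmosomes and keratin filaments. PPL had 421, 566 and 218 CPM in the fresh and 368, 161 and 161 CPM in the preconditioned libraries. Preconditioned replicate 1 lay within the fresh range and the other preconditioned libraries lay below it. The log2FC of PPL was −0.80 (SE 0.45, edgeR adjusted p = 0.27), with −1.33 when preconditioned replicate 1 was left out (adjusted p = 0.071). EVPL had 27.2, 21.5 and 11.2 CPM in the fresh and 31.3, 16.8 and 33.8 CPM in the preconditioned libraries. The groups overlapped, and its log2FC was 0.45 (SE 0.38, edgeR adjusted p = 0.45).

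**Figure D2:**
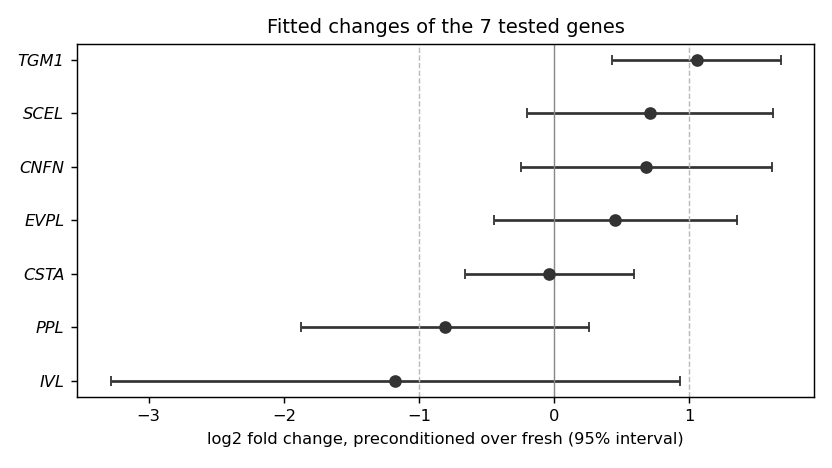
Log2 fold changes of the 7 tested genes, preconditioned over fresh, with points for edgeR's estimates, bars for 95% intervals and dashed lines at the cutoff of 1 in either direction. Only the interval of TGM1 (0.43 to 1.68) leaves out 0, and that of IVL is the widest (−3.28 to 0.93).

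Levels of different genes were compared as FPKM, which divides a gene's count by the library total and by the gene's length. In the fresh group IVL, PPL and CNFN were close together, at 79.8 ± 41.7, 68.4 ± 29.6 and 67.0 ± 14.8 FPKM (SD, n = 3 each), and overlapped in their spread between libraries. Within each fresh library IVL was above PPL, by a ratio of 1.01 to 1.29. SCEL followed at 31.8 ± 15.3 FPKM, then CSTA at 10.2 ± 1.99, TGM1 at 4.21 ± 1.31, EVPL at 3.296 ± 1.33 and TGM3 at 0.0241 ± 0.00336 FPKM (SD, n = 3 each). TGM1 and EVPL lay within each other's spread between libraries, but TGM1 was above EVPL within each fresh library. In the preconditioned group CNFN was highest at 96.4 ± 57.3 FPKM, followed by SCEL at 46.3 ± 10.7, PPL at 35.1 ± 19.1 and IVL at 31.7 ± 33.6 FPKM (SD, n = 3 each). These 4 genes overlapped in their spread between libraries. Within each preconditioned library CNFN was the highest of the 4, in replicate 3 at 58.87 FPKM against 58.17 for SCEL. CSTA at 8.87 ± 2.18 and TGM1 at 7.79 ± 1.21 FPKM were next, then EVPL at 4.04 ± 1.44 and TGM3 at 0.0554 ± 0.0153 FPKM (SD, n = 3 each). Among all tested genes, the mean FPKM of CNFN over the 6 libraries stood at percentile 93.8, IVL at 90.7, PPL at 90.0 and SCEL at 87.0, while TGM1 and EVPL were near the middle at 51.9 and 43.1.

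The makeup of the program was then described within each library. IVL held 26.5%, 34.5% and 26.5% of the members' summed FPKM in the fresh libraries and 19.4%, 12.8% and 2.64% in the preconditioned libraries. PPL held 23.4% to 26.7% and 13.9% to 16%. CNFN held 21.9% to 31.6% in the fresh and 35.8% to 45.5% in the preconditioned libraries, and TGM1 1.33% to 1.88% and 2.50% to 4.67%. The groups did not overlap in these 4 shares (36.7% of all tested genes had no overlap in CPM). They overlapped in the other 5, among them SCEL with 13.0%, 12.4% and 9.38% in the fresh and 12.2%, 22.0% and 35.4% in the preconditioned libraries, CSTA with 2.28% to 6.3% and 3.13% to 5.07%, and EVPL with 0.984% to 1.64% and 1.32% to 3.05%. The shares of a library sum to the same total and so are not independent of each other.

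Ratios between members, picked after the values had been seen, are free of the scaling between libraries. Periplakin RNA exceeded that of its partner envoplakin by a factor of 15.97, 27.1 and 20.1 in the fresh and 12.1, 9.87 and 4.90 in the preconditioned libraries. The mean log2 ratio was 4.36 ± 0.38 and 3.07 ± 0.68 (SD, n = 3 each), a difference of −1.30 that is given as a description, with no test. IVL exceeded TGM1 by a factor of 14.1, 25.96 and 15.6 in the fresh libraries, whereas the ratio was 7.75, 2.74 and 0.665 in the preconditioned libraries. In log2 it was 4.16 ± 0.47 and 1.27 ± 1.78 (SD, n = 3 each). The precursor and its crosslinking enzyme thus stood furthest apart in fresh replicate 2, and their order was turned in preconditioned replicate 3. The ratio of IVL to PPL overlapped between the groups, at 1.01 to 1.29 in the fresh libraries and 1.21, 0.916 and 0.177 in the preconditioned libraries.

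**Figure D3:**
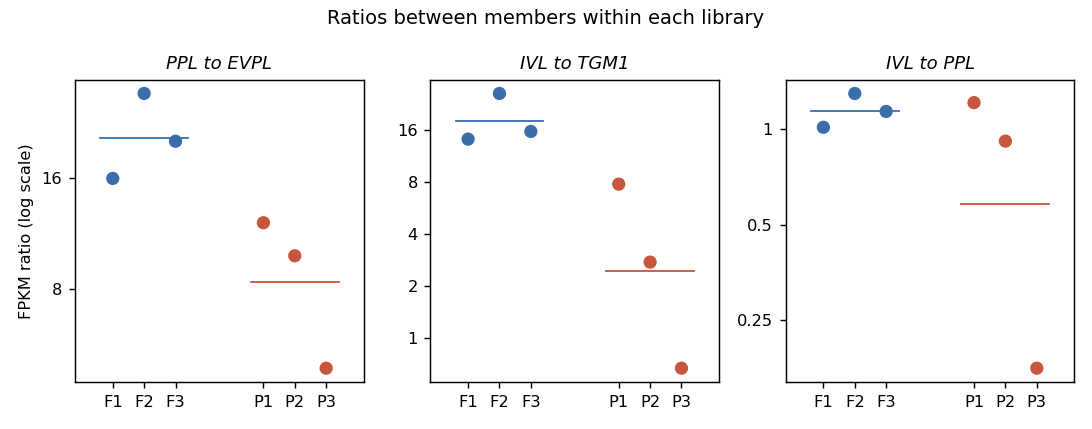
Ratio of FPKM between pairs of members in each fresh (F, blue) and preconditioned (P, red) library, on log axes, with lines at the mean log2 ratio of each group. The ratios of PPL to EVPL (15.97 to 27.1 against 4.90 to 12.1) and of IVL to TGM1 do not overlap between the groups, while those of IVL to PPL do.

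The 7 tested genes shared some of their spread within groups. Of the 3 fresh libraries, fresh replicate 3 was lowest for 6 of the 7 genes, the exception being CSTA. Of the 3 preconditioned libraries, replicate 1 was highest for 5 of the 7 genes, and replicate 3 was highest for SCEL and EVPL and lowest for the other 5. The same counts over all tested genes were not taken. The highest fresh value was 1.49 to 3 times the lowest over the 7 genes, with a median of 2.43 against 1.30 over all tested genes. In the preconditioned group the median was 2.01 against 1.46. The distance between members was taken as the root mean square difference of their log2 CPM over the 6 libraries, each gene being centred on its own mean. The closest pair was EVPL and SCEL at 0.354, followed by TGM1 and SCEL at 0.390 and TGM1 and CNFN at 0.443. The partners EVPL and PPL were 0.784 apart, and IVL was furthest from SCEL, at 1.83.

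By the same distance, each member was set against the 11865 other tested genes with a symbol. The 5 nearest to IVL were UBA7 (0.370), EPSTI1 (0.379), NOX1 (0.393), HSH2D (0.397) and IFIH1 (0.433), all nearer to it than any of the far fewer members. UBA7 is the activating enzyme for the ubiquitin-like protein ISG15, and IFIH1 is the cytosolic sensor of viral RNA known as MDA5. UBA7 had 70.1, 149 and 80.3 CPM in the fresh and 70.5, 30.4 and 4.05 CPM in the preconditioned libraries. IFIH1 had 81.7, 200.3 and 77.5 CPM in the fresh and 66.8, 30.6 and 10.3 CPM in the preconditioned libraries. All 5 were highest in fresh replicate 2 and lowest in preconditioned replicate 3, as IVL was, which follows from their choice by profile. Neither UBA7 nor IFIH1 was called (edgeR adjusted p = 0.28 and 0.15). The nearest gene was SH3BGRL2 for TGM1 (0.0971), TSTD3 for EVPL (0.198), CNDP1 for PPL (0.202), TMEM125 for CNFN (0.221), TUBB4A for SCEL (0.179) and CDK7 for CSTA (0.0577). These are the closest of many genes over 6 libraries and are given as a description.

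IVL and FLG lie in the epidermal differentiation complex, a cluster of genes for envelope and S100 proteins. The authors' genome build is not given in the sources used here, so neighbours were taken by gene identifier from the RefSeq annotation of the rabbit assembly mOryCun1.1, without coordinates. Between S100A9 and S100A11 it lists 26 protein-coding genes, of which 17 had a row in the table and 8 were tested. None of the 8 was called by edgeR, and 2, TCHH and CRCT1 (LOC103350054 in the table), passed 0.05 before adjustment, against 30.6% of all tested genes. The same 2 genes were higher in every preconditioned than in every fresh library, and 36.7% of all tested genes had no overlap in either direction. IVL had by far the most FPKM of the 17 in each fresh library. In preconditioned replicate 3 it was at 4.34 FPKM, below TCHH, CRCT1 and LOC108177670 at 10.09, 9.03 and 6.56 FPKM. The gene next to IVL is SPRR3, a small proline-rich envelope precursor, and further genes on that side are described as cornifin. SPRR3 had 10, 25 and 4 counts in the fresh and 50, 39 and 18 counts in the preconditioned libraries (log2FC 1.60, SE 0.70, edgeR adjusted p = 0.17). Its log2FC was 2.47 without fresh replicate 2 and 1.17 without fresh replicate 3. LOC100354877 carries the same description and had 2 to 14 counts, and how the counting shared reads between these rows is not known. The rows described as cornifin alpha and cornifin had 0.169 to 1.395 and 0.593 to 2.35 CPM, with no separation of the groups.

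Next to FLG, the rows of FLG2 and hornerin had at most 1 and 3 counts in any library, and LORICRIN, for the main precursor of the epidermal envelope, had at most 4. A row described as filaggrin-2-like, LOC127490085, had 17 to 30 counts (log2FC −0.03, edgeR adjusted p = 0.97). TCHH, for trichohyalin, a crosslinked matrix protein of hair follicle and tongue, stood in contrast at percentile 58.3 of mean FPKM among all tested genes. It had 37.5, 36.1 and 28.3 CPM in the fresh and 59.0, 54.0 and 57.8 CPM in the preconditioned libraries, with a log2FC of 0.74 (SE 0.14, edgeR adjusted p = 0.039), under the cutoff on size. Its neighbour TCHHL1 had a log2FC of −0.44 (adjusted p = 0.31).

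**Figure D4:**
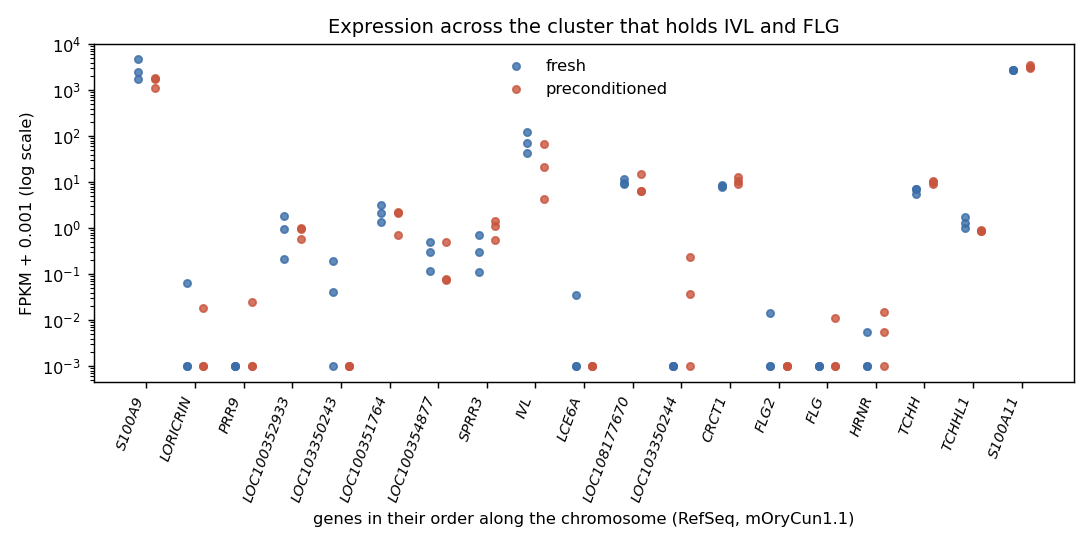
FPKM with 0.001 added, on a log axis, in each fresh (blue) and preconditioned (red) library for the genes with a row in the table from S100A9 to S100A11, in their order in the RefSeq annotation of mOryCun1.1. The end genes S100A9 and S100A11 are highest, IVL stands above every gene between them in the fresh libraries, and FLG, FLG2, HRNR and LORICRIN lie at or near the bottom, where 0.001 stands for 0.

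Other genes of the pathway were taken from 6 lists by role, with 103 genes in the table and 93 tested. Of the 93, edgeR called 2 higher and 2 lower in the preconditioned group, against 1.08% and 1.2% of all tested genes. On the adjusted p alone 9 of the 93 passed, against 5.08%, and the DESeq2 Wald test called 8, 4 in each direction, against the 7.78% given above. The split depended on the scaling. When libraries were scaled by their size alone, 0 were called higher and 3 lower. Limma called 0 higher and 3 lower on log2(FPKM + 1) and 0 higher and 5 lower on log2(FPKM + 0.1). Over all tested genes these fits called 142 higher and 423 lower, 77 and 206, and 141 and 449, a tilt in the same direction. The median log2FC of all tested genes was −0.16, −0.09 and −0.15 in these fits. The count of 4 became 0 when any fresh library or preconditioned replicate 2 was left out, 1 without preconditioned replicate 3 and 12 without preconditioned replicate 1, and a fit that blocked on replicate number gave 0. Calls over all tested genes moved in the same fits, from 344 to between 14 and 72 without any library other than preconditioned replicate 1, to 1546 without that library and to 30 with the block. The log2FC of ANXA1 was 1.07 to 1.24, of CTSV 0.79 to 1.21 and of BARX2 −1.18 to −0.91 with 1 library left out. Without preconditioned replicate 1, ASAH1, CASP14, CTSC, DLX3, KRTDAP, PRSS8 and TP63 were among the 12 called. The median log2FC over the 93 genes was 0.16, with 56 above and 37 below 0.

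Among 14 further envelope precursors and crosslinkers (median log2FC 0.37), ANXA1 was called higher with TMM. Annexin A1 is a calcium-dependent membrane-binding protein that is crosslinked into the envelope and is known for its anti-inflammatory action. It had 9419, 7489 and 8745 CPM in the fresh and 19750, 20500 and 17160 CPM in the preconditioned libraries, with no overlap. The log2FC was 1.16 (SE 0.15, edgeR adjusted p = 0.021), and with library size alone it was 0.992 and fell just under the cutoff on size (adjusted p = 0.025). SERPINB2, a protease inhibitor of keratinocytes, had a log2FC of 1.28 (adjusted p = 0.14) and was within the fresh range in preconditioned replicate 3, with a log2FC of 0.58 without preconditioned replicate 2. S100A10 and S100A11, calcium-binding proteins that are also envelope substrates, had log2FC values of 0.38 and 0.40 (adjusted p = 0.19 and 0.066). KRTDAP, a small secreted protein of differentiating keratinocytes, had 4.75, 6.44 and 3.94 CPM in the fresh and 3.62, 1.15 and 0.428 CPM in the preconditioned libraries (log2FC −1.54, adjusted p = 0.19). Without preconditioned replicate 1 its log2FC was −2.68 and it was called (edgeR adjusted p = 0.015).

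None of 11 desmosome genes, the anchors of the plakins (median log2FC 0.28), was called by edgeR, and 4 passed 0.05 before adjustment, against 30.6% of all tested genes. DSG3, PKP1, JUP and PERP, the most abundant by FPKM, had 500.4 to 1545 CPM over the 6 libraries. PERP, a membrane protein needed for desmosomes, passed the test on p but not on size (log2FC 0.68, edgeR adjusted p = 0.039). DSC1, the desmocollin of cornifying layers, had 0.0821 to 0.225 CPM in the fresh and 0.457 to 0.576 CPM in the preconditioned libraries (log2FC 1.79, adjusted p = 0.078). JUP, plakoglobin, had a log2FC of −0.17 (adjusted p = 0.40).

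KLK7 belongs to the proteases of desquamation, of which 14 genes with their inhibitors were tested (median log2FC 0.34). Before adjustment 9 of the 14 had p at or under 0.05, against 30.6% of all tested genes. CTSV, a lysosomal cysteine protease of keratinocytes and corneal epithelium and a target of cystatins, had 2401, 2247 and 2924 CPM in the fresh and 4358, 7306 and 4378 CPM in the preconditioned libraries. It was called higher, with a log2FC of 1.08 (SE 0.23, edgeR adjusted p = 0.048), but not with library size alone (0.91, adjusted p = 0.047) or limma on log2(FPKM + 1) (0.88, adjusted p = 0.054). CTSC, cathepsin C, passed on p but not on size with a log2FC of −0.97 (adjusted p = 0.042), and it was called in those other fits, at −1.14 and −1.15. PRSS8, the membrane protease prostasin, had 14.3, 20.9 and 17.9 CPM in the fresh and 23.4, 93.7 and 84.1 CPM in the preconditioned libraries (log2FC 1.92, adjusted p = 0.064). CASP14, the caspase of cornification, had 1.101 to 1.64 and 0.0988 to 0.517 CPM (log2FC −1.93, adjusted p = 0.085). The inhibitors SPINT2, CST3 and CSTB had log2FC values of 0.52, 0.48 and 0.31 (adjusted p = 0.059, 0.15 and 0.14).

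Of the kallikrein family itself, KLK11 had 21.4 to 34.6 and 37.8 to 47.3 CPM (log2FC 0.61, edgeR adjusted p = 0.090) and KLK12 at most 1 count in any library. LOC100344799, described as kallikrein-10 and looked up after the values were seen, had 12.7, 8.07 and 8.07 CPM in the fresh and 22.4, 56.8 and 57.5 CPM in the preconditioned libraries. It was called, with a log2FC of 2.25 (SE 0.40, edgeR adjusted p = 0.039), and its log2FC was 2.04 to 2.56 with 1 library left out, while its adjusted p was 0.09 to 0.14 when that library was any other than preconditioned replicate 1. LOC100344039, described as kallikrein-4 and also looked up afterwards, had 3.97, 0.675 and 0.875 CPM in the fresh and 7.97, 18.6 and 15.97 CPM in the preconditioned libraries. Its log2FC of 2.95 was not called (SE 0.73, edgeR adjusted p = 0.060), while DESeq2 called it (adjusted p = 8.2e-05). With 1 library left out it ran from 2.54 to 4.18, the highest without fresh replicate 1, and it was called without preconditioned replicate 1. Kallikrein genes are similar in sequence, and how the counting treated reads shared between them is not known.

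No gene was called by edgeR among 14 tested enzymes of the lipid envelope, which covers the protein envelope with bound ceramides (median log2FC 0.15, 3 passed 0.05 before adjustment, against 30.6% of all tested genes). UGCG, the glucosylceramide synthase, passed on p but not on size (log2FC 0.84, edgeR adjusted p = 0.037), and the ceramidase ASAH1 had a log2FC of 0.85 (adjusted p = 0.059). ELOVL4, which elongates fatty acids, had a log2FC of 0.14 (adjusted p = 0.68), and the ceramide synthase CERS4 one of −1.42 (adjusted p = 0.17).

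Of 32 regulators of squamous differentiation (median log2FC −0.03), 2 were called lower, BARX2 among them, against 1.2% of all tested genes. BARX2, a homeobox factor, had 40.6, 27.6 and 35.9 CPM in the fresh and 18.8, 13.8 and 18.2 CPM in the preconditioned libraries, with a log2FC of −1.04 (SE 0.20, edgeR adjusted p = 0.039). Its edgeR adjusted p was 0.09 to 0.14 without any 1 library other than preconditioned replicate 1, and 0.075 with a block on replicate number. DLX3, another homeobox factor of the epidermis, had a log2FC of −1.45 (adjusted p = 0.071), and the nuclear receptor gene RORA passed on p alone (0.68, adjusted p = 0.043). EHF, ELF3, JUNB and PPARD, which were the most abundant by FPKM, had log2FC values of 0.23, 0.68, 0.02 and 0.47 (adjusted p = 0.41, 0.075, 0.90 and 0.059). TP63 had a log2FC of −0.77 (adjusted p = 0.059).

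Of 8 suprabasal and corneal keratins, edgeR called none (median log2FC 0.26). Only KRT10, a suprabasal differentiation keratin, passed 0.05 before adjustment, against 30.6% of all tested genes. It was higher in every preconditioned library, at 26.7, 30.1 and 21.3 CPM in the fresh and 36.7, 39.2 and 44.1 CPM in the preconditioned libraries (log2FC 0.62, edgeR adjusted p = 0.061). KRT3, the corneal differentiation keratin, had 961, 2655 and 409 CPM in the fresh and 801, 240 and 697 CPM in the preconditioned libraries (log2FC −1.21, edgeR adjusted p = 0.30), and its log2FC was −0.25 without fresh replicate 2 (adjusted p = 0.83). Like IVL and PPL it was highest in fresh replicate 2. KRT16, a keratin of activated keratinocytes, had 589, 445 and 413 CPM in the fresh and 466, 259 and 99.4 CPM in the preconditioned libraries, with preconditioned replicate 1 inside the fresh range (log2FC −0.81, adjusted p = 0.31). Its log2FC was −1.44 without preconditioned replicate 1 (adjusted p = 0.074) and −0.41 without preconditioned replicate 3. KRT4, KRT17 and KRT78 had log2FC values of 1.46, −0.71 and 0.05 (adjusted p = 0.46, 0.37 and 0.95). KRT4 was at 44.2 CPM in preconditioned replicate 1 and at 1.55 to 13.1 CPM in the other libraries, and its log2FC without that library was −0.98.

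**Figure D5:**
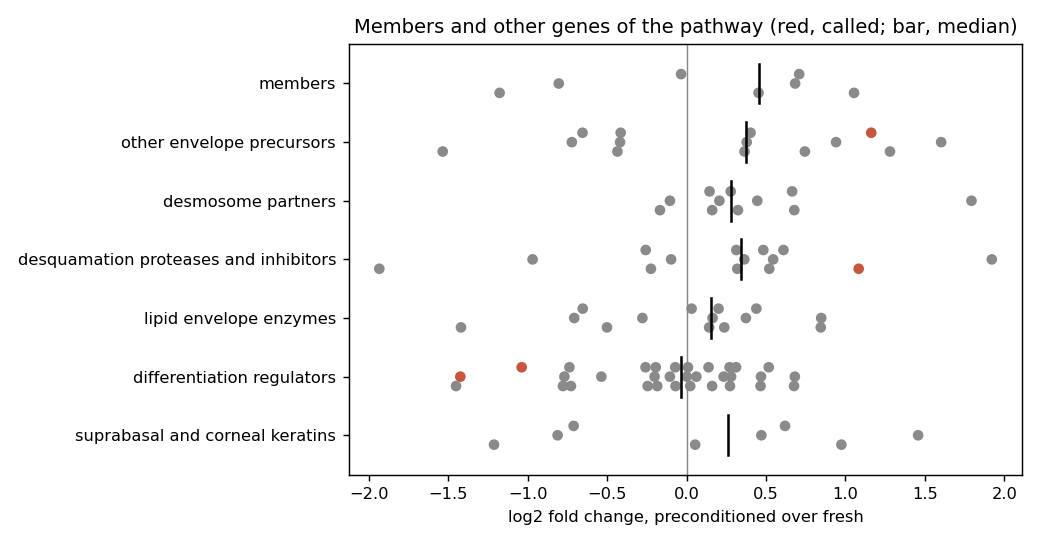
Log2 fold changes, preconditioned over fresh, of the tested members and of the tested genes of 6 lists of the same pathway, with a point for each gene, red for called genes and a black bar at the median of each list. The 4 called genes include ANXA1, CTSV and BARX2, and the 7 members spread from −1.18 to 1.05 with none called.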

How the data were processed

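The authors aligned reads with hisat2 and deposited raw counts per gene from htseq-count, and also FPKM, which equal the deposited count over the library total and over 1 length per gene. The genome build, annotation and strand setting are not given in the sources used here. Groups and replicate numbers came from the sample titles. In R 4.3.3, counts were filtered with edgeR 4.0.16 (filterByExpr, leaving 15029 of 22190 genes), scaled by TMM and compared by the robust quasi-likelihood test with condition as the only factor, adjusted by Benjamini-Hochberg over all tested genes. Standard errors and 95% intervals came from the F statistic. FPKM served for levels between genes and for ratios. The members and lists were chosen with earlier results of these data known. All members were named, and from each list the called genes, the 4 most abundant by FPKM and the 2 with the largest absolute fold changes, while a few others were named after their values were seen. Some genes that this rule names are not reported here. Profiles used log2(CPM + 0.5). Alternatives were DESeq2 1.42.0, its size factors within edgeR, no TMM, other filters, a replicate block, leaving out each library, and limma 3.58.1 on log2(FPKM + 1) and log2(FPKM + 0.1). The fits were tested on simulated counts. Libraries of a group differed by more than sampling noise (chi-square per degree of freedom 48.1 to 147). Intervals of counts cover counting error only.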

Additional observations from a re-analysis of the deposited data

How the results depend on the processing

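The number of members called was 0 in 13 of 15 alternatives and 1, TGM1, with the DESeq2 Wald test and with no filter on low counts. The number of other pathway genes called was 4. It became 8 with DESeq2 (344 calls over all tested genes became 1190) and 9 with no fold change cutoff (763). It was 3 with library size alone (565), and 3 and 5 with limma on log2(FPKM + 1) and log2(FPKM + 0.1) (283 and 590). All pathway genes called in these 3 fits were lower in the preconditioned group, against 2 higher and 2 lower with TMM. Over all tested genes these fits also called more lower than higher, 423 against 142, 206 against 77 and 449 against 141. The number of pathway genes called was 0 with the replicate block and 0 to 12 with 1 library left out. In the last 2 kinds of fit calls over all tested genes went from 344 to 30 with the block and to 14 to 1546 with 1 library left out, and with the block the log2 fold changes were 1.16 for ANXA1 and −1.03 for BARX2. In the fit with the replicate block 0 members were called, and libraries of the same number did not deviate together (correlations of −0.12 to −0.07), so that they share only a number. Leaving out a library turned the sign of CSTA's log2 fold change, −0.03, in 2 of 6 cases, and over these cases it ran from −0.22 to 0.13 (0.12 without fresh replicate 1). IVL kept its sign in 14 of 14 alternatives, with −2.43 to −0.66, as did TGM1 (0.78 to 1.22), PPL (−1.33 to −0.48), EVPL (0.16 to 0.74), CNFN (0.10 to 0.94) and SCEL (0.37 to 1.04). Of the other genes given with a fold change, 6 turned in sign under some alternative. Without TMM, with limma on log2(FPKM + 1) and with limma on log2(FPKM + 0.1), ELOVL4 was at −0.0282, −0.0267 and −0.0277, JUNB at −0.146, −0.148 and −0.149, KRT78 at −0.106, −0.0494 and −0.0494, and TGM6 at −0.0220, −0.0127 and −0.204. TGM6 was at −0.38 with the replicate block. With 1 library left out ELOVL4 ran from −0.018 to 0.31, JUNB from −0.038 to 0.076, KRT78 from −0.33 to 0.60, KRT4 from −0.98 to 2.65, TGM6 from −1.03 to 0.65 and LOC127490085 from −0.29 to 0.15. Scaling by library size alone, without TMM, shifted all tested genes from a median of 0.01 to −0.16 on the log2 scale. Depth kept TGM3 and FLG, with at most 10 and 2 counts in any library, out of the test.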
